A study of Gallus gallus with 7 samples.

Results

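Values covered part of the chicken genome, on chromosomes 1, 10 to 13 and the start of 14. Most covered stretches crowded with CpG dinucleotides were nearly free of methylation in hypothalamic microglia, and the regions described here are the exceptions. The covered chromosomes were cut into fixed 500-bp tiles. A tile was called dense if it held at least 31 cytosine positions with a value in all 7 libraries (common positions), and methylated if its mean over the 4 Non-Cond libraries was 50% or more. Of 23804 tiles with a common position, 5615 were dense, and 349 of these (6.22%) were methylated. They were set beside the 4205 dense tiles (74.9%) with a mean under 10%, and the 1061 dense tiles (18.9%) between both limits were used only where stated. Because the level in Non-Cond libraries chose the tiles, that level is given as a description and was not tested.

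Reduced representation bisulfite sequencing (RRBS) reads methylation at cytosines in CpG-rich restriction fragments, since bisulfite converts unmethylated cytosines and leaves methylated ones. Here it was used on microglia, which are the brain's own macrophages, taken by cell sorting (FACS) from anterior hypothalamus of Gallus gallus chicks on day 10 after hatching. Cond chicks had been exposed to 39 °C for 24 hours on day 3, and Non-Cond chicks had not. Both groups were sampled before any challenge with lipopolysaccharide, so neither carries it, and the question is whether the day of heat left a difference in methylation a week later. There were 3 Cond libraries, numbered 1-2, 3 and 4, and 4 Non-Cond libraries, numbered 1 to 4, each from a pool of 10 to 12 chicks and 15 to 30 ng of DNA. The labels name no strain, genotype or sex for either group and do not say how Cond library 1-2 was made, so it was used as 1 library. A methylation table holds no marker expression, and the purity of the sorted cells could not be checked in it. Values are percentages of methylated calls with the number of calls not given, so the depth behind them is unknown.

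In vertebrates most CpGs are methylated by DNA methyltransferases, and methylated cytosines tend to mutate to thymine, so CpGs are rare in most of the genome. Clusters of CpGs, called CpG islands, usually lie at gene starts and are usually unmethylated. Methylated islands are known from silenced germline genes, gene bodies and repeats. No annotation or genome of the build of these tiles was used here, so neither the genes at the tiles nor their base sequences are given.

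The methylated dense tiles held 16140 of the 513180 common positions, and the tiles under 10% held 292858. Values were given at 724260 to 862443 positions in Cond libraries and at 652465 to 694825 in Non-Cond libraries. Within the methylated tiles, 85.4%, 93.9% and 92.6% of listed positions had a value in Cond libraries 1-2, 3 and 4, against 81.2% to 82.7% in Non-Cond libraries. Within the tiles under 10%, these shares were 85.4%, 92.7% and 91.1% in the Cond libraries, and 80.7% to 83.1% in the Non-Cond libraries. Coverage of positions thus differed between the groups in both kinds of tile, and its part in the results was not tested.

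Levels in the methylated tiles spread over a broad range. Their Non-Cond means ran from 50.04% to 95.1% with a median of 68.8%. There were 94 tiles from 50% to 60%, 89 from 60% to 70%, 98 from 70% to 80%, 60 from 80% to 90%, and 8 above 90%. Below the limit, 92 dense tiles lay from 40% to 50% and 129 from 30% to 40%, so no gap separates the methylated tiles from the rest. Far more lay at low levels, with 645 dense tiles from 10% to 20% and 2284 from 5% to 10%.

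The more common positions a tile held, the less often it was methylated. Of tiles with 3 to 5 common positions, 63.0% had a Non-Cond mean of 50% or more. The share was 21.8% with 21 to 30 positions, 14.2% with 31 to 40 (177 of 1245 tiles), 6.57% with 41 to 60 (116 of 1765), 3.36% with 61 to 80 (38 of 1130) and 1.22% with 81 to 194 (18 of 1475).

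**Figure D1:**
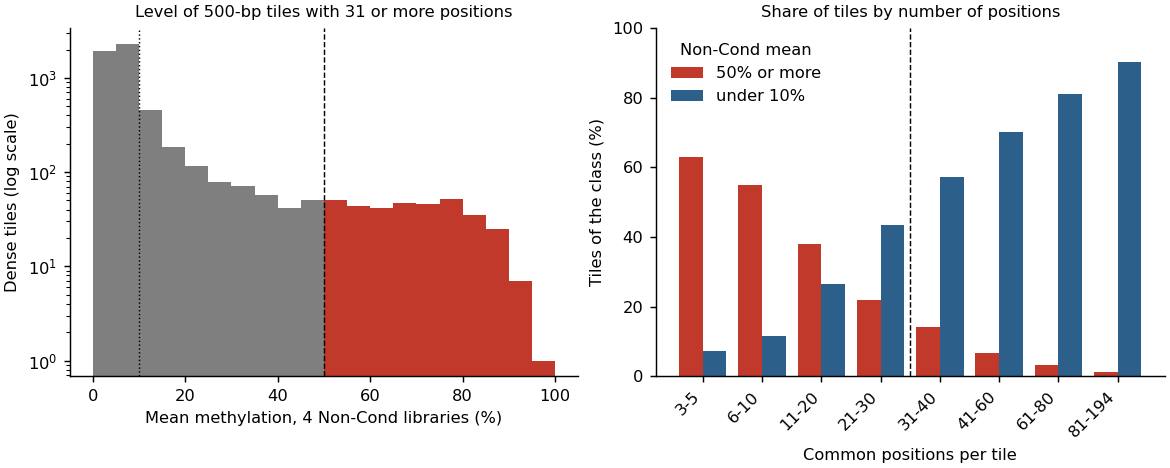
Left, the number of dense tiles (log scale) by mean methylation over the 4 Non-Cond libraries, with the 349 tiles at 50% or more in red, a dotted line at 10% and a dashed line at 50%. Right, the percentage of tiles at 50% or more (red) and under 10% (blue) by common positions per tile, with the dense classes to the right of the dashed line: the red share is 14.2% at 31 to 40 positions and 1.22% at 81 to 194.

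Methylated tiles were also less crowded than the unmethylated ones. They held a median of 40 common positions (31 to 147), against 64 (31 to 194) in tiles under 10%. Counting every position in the table, the medians were 32 CpGs in methylated tiles and 52 in tiles under 10%, and the median gap between neighbouring CpGs was 9 bp and 6 bp. CpGs that touch, as in CGCG, took a median of 11.6% of positions in methylated tiles and 21.6% in tiles under 10%. With 81 or more common positions in both sets, these shares were 13.7% in the 18 methylated tiles and 24.3% in the 1332 tiles under 10%, and the CpG counts were 58 and 68. The median share of listed positions common to all libraries was 71.7% in methylated tiles and 71.1% in tiles under 10%. At like density it was higher in methylated tiles. It was 67.3% against 58.6% with 31 to 40 common positions, and 72.0% against 63.0% with 41 to 60. With 61 to 80 it was 80.8% against 69.6%, and with 81 or more 86.7% against 81.3%.

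The tile with the most common positions lay at chromosome 12, 2404001 to 2404500 (147 positions). All coordinates are on galGal5, the build in the submitters' processing notes, counted from 1. Its methylation was 72.8%, 51.0% and 59.6% in Cond libraries 1-2, 3 and 4, against 52.0%, 57.8%, 55.4% and 59.9% in Non-Cond libraries 1 to 4. Cond library 1-2 was the highest of all 7 and Cond library 3 the lowest, so the groups overlapped. The tile before it, with 99 positions, averaged 6.71% in Cond and 9.32% in Non-Cond libraries, while the one after it averaged 55.9% in both.

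At chromosome 12, 3232501 to 3233000 (113 positions), the level was higher and steadier, with 86.1%, 80.02% and 82.8% in Cond and 83.3%, 80.6%, 83.6% and 83.2% in Non-Cond libraries. Both neighbours of that tile were methylated as well, at 76.9% and 82.7% in Cond and 79.1% and 78.7% in Non-Cond libraries. At chromosome 13, 10390501 to 10391000 (111 positions), the values were 68.7%, 62.4% and 62.9% in Cond and 64.4%, 66.1%, 59.99% and 64.5% in Non-Cond libraries. The groups overlapped in both tiles. At chromosome 12, 11518501 to 11519000 (109 positions), Cond libraries spread from 53.2% through 59.1% to 77.2%, and Non-Cond libraries lay between 57.6% and 68.0%. There Cond libraries 1-2 and 3 stood outside the Non-Cond range on opposite sides.

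The highest level belonged to chromosome 1, 195854001 to 195854500 (67 positions), with 94.4%, 95.2% and 94.1% in Cond and 95.4%, 95.3%, 94.7% and 95.2% in Non-Cond libraries. It also had the smallest spread between Non-Cond libraries of the 349 tiles (SD 0.319, n = 4). Even there a single cytosine, picked after its values were seen, stood apart from the tile. Position 195854266 was listed at 0, 50% and 0 in Cond libraries and at 100%, 0, 100% and 100% in Non-Cond libraries. The number of calls behind these values is unknown. The groups overlapped at that cytosine, since Non-Cond library 2 was at 0 like Cond libraries 1-2 and 4. The next 4 by level were chromosome 12, 9027001 to 9027500 (95.7% in Cond, 94.6% in Non-Cond), chromosome 1, 666001 to 666500 (91.4% and 94.2%), chromosome 11, 18110001 to 18110500 (91.0% and 92.7%) and chromosome 1, 195425501 to 195426000 (91.0% and 91.7%).

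Just inside the limit of 50% lay chromosome 1, 138650501 to 138651000 (50.5% in Cond, 50.04% in Non-Cond), followed by tiles with Non-Cond means of 50.2%, 50.3%, 50.3% and 50.6%. Just outside lay chromosome 13, 10363001 to 10363500 (44.3% in Cond, 49.8% in Non-Cond), followed by 49.7%, 49.6%, 49.5% and 49.3%. Of the 5 just outside, 3 had a Cond mean above 50%, and of the 5 just inside, 4 had a Cond mean below it. Over all dense tiles, 21 of the 349 fell under 50% in the Cond mean, the lowest at 41.2%, and 16 others reached 50% in the Cond mean but not in the Non-Cond mean. Methylation was 50% or more in every one of the 7 libraries in 274 tiles.

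A tile level near 60% or 70% was made mostly of partly methylated cytosines. Of the 16140 positions in methylated tiles, 2.64% had a Non-Cond mean under 20%, 59.1% lay from 20% to 80% and 38.3% at 80% or more. In tiles under 10% these shares were 95.8%, 3.62% and 0.530%. In 181 of the 349 tiles no position lay under 20%. The SD between the positions of a tile had a median of 18.2 percentage points in methylated tiles and 9.01 in tiles under 10%.

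Where both strands of a CpG were common positions, they carried like levels in methylated tiles. Over 7121 CpGs the median absolute difference between strands was 6.22 points, and Pearson's r across CpGs was 0.763. In tiles under 10% the median difference was 2.22 points and r was 0.0213 over 125851 CpGs. These r values are descriptions across CpGs that share libraries, and the narrow range of levels under 10% bears on the second. Cytosines at 80% or more in Non-Cond libraries had partners on the other strand with a median of 88.4%, and 78.2% of those partners were at 80% or more too. Cytosines from 20% to 80% had partners with a median of 62.5%. Cytosines under 20% had partners with a median of 21.3%, and 46.5% of their 297 partners were also under 20%. Over all positions of the methylated tiles, 2.64% lay under 20% and 38.3% at 80% or more, so the 2 partner shares are not directly comparable. Averaged over a tile, the strands differed by a median of 2.62 points, and by more than 10 points in 16 of 349 tiles.

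The same low, intermediate and high cytosines were recognisable in Cond libraries, which had no part in sorting them. Cytosines at 80% or more in Non-Cond libraries had a median of 88.5% in the Cond mean and 90.2% in the Non-Cond mean. Those from 20% to 80% had 61.6% in Cond and 60.8% in Non-Cond, and those under 20% had 19.9% in Cond and 12.5% in Non-Cond. The sort used the Non-Cond values, so the medians of the outer classes are not comparable between the groups. Within tiles, after each tile's mean was removed, Pearson's r across the 16140 positions was 0.574 to 0.653 for pairs of Cond libraries, 0.479 to 0.570 for pairs between groups and 0.482 to 0.512 for pairs of Non-Cond libraries. Across the 349 tile means, r between libraries ran from 0.740 to 0.926.

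Exact 100% was listed at 15.3%, 9.08% and 10.5% of the methylated tiles' positions in Cond libraries 1-2, 3 and 4, and at 17.3% to 19.5% in Non-Cond libraries. Exact 0 was listed at 1.05% to 1.75% of positions in Cond and 3.15% to 3.51% in Non-Cond libraries. Both extremes were thus less frequent in every Cond library than in every Non-Cond library, although mean levels were not ordered that way. The number of calls behind each value would bear on this, and it is unknown.

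Some methylated tiles held an edge. Splitting each tile's positions into equal numbers at lower and higher coordinates gave a median absolute difference of 7.85 points, and over 30 points in 13 tiles. The widest step was at chromosome 1, 15899001 to 15899500 (66 positions). Its positions at lower coordinates averaged 85.9%, 83.9% and 86.5% in Cond and 84.8%, 85.0%, 86.5% and 85.2% in Non-Cond libraries. Those at higher coordinates averaged 35.8%, 28.4% and 32.5% in Cond and 33.0%, 34.7%, 32.6% and 35.01% in Non-Cond libraries. The step was present in all 7 libraries, and it continued outside the tile: the tile before averaged 88.9% in Cond and 89.96% in Non-Cond, and the tile after 2.70% and 3.28%. As a whole the tile averaged 58.8% in Cond and 59.6% in Non-Cond, a value few of its cytosines had, since only 12.1% of them lay from 20% to 80%.

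The reverse orientation occurred at chromosome 11, 19531001 to 19531500, where positions at lower coordinates averaged 39.4% in Cond and 31.4% in Non-Cond, and those at higher coordinates 78.5% and 74.6%. At chromosome 11, 19163001 to 19163500, the averages were 69.1% in Cond and 74.2% in Non-Cond at lower coordinates, and 32.1% and 31.1% at higher ones.

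**Figure D2:**
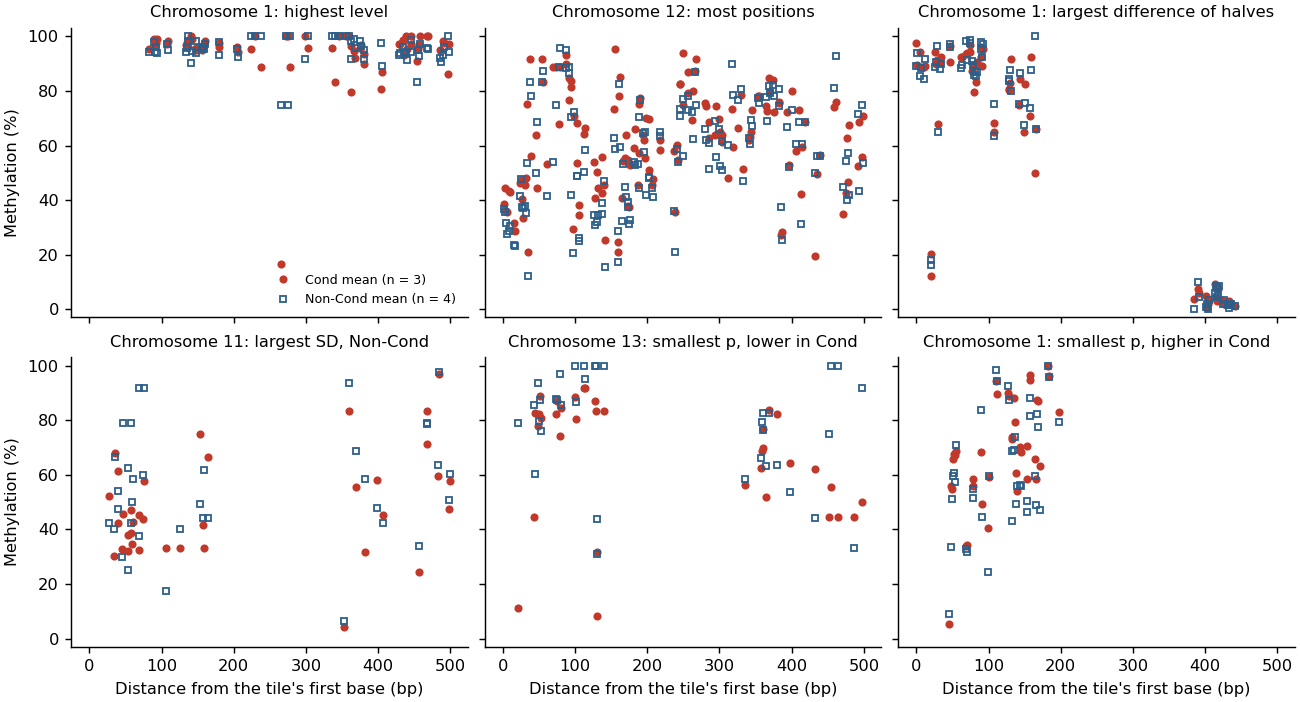
Methylation of each common position (%) against its distance from the first base of the tile (bp) in 6 methylated dense tiles, as the mean of the 3 Cond libraries (red circles) and of the 4 Non-Cond libraries (open blue squares). The top right tile (chromosome 1, 15899001 to 15899500) averages 85.4% in Cond and 85.3% in Non-Cond at lower coordinates and 32.3% and 33.8% at higher ones, while the top left one stays near 95% in Non-Cond except for single cytosines.

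The tiles next to methylated dense tiles were mostly methylated too. Of 466 adjacent tiles with at least 3 common positions, 68.7% had a Non-Cond mean of 50% or more and 5.15% one under 10%, with a median of 65.2%. Of 5972 tiles adjacent to those under 10%, 2.09% were at 50% or more and 76.4% under 10%, with a median of 5.95%. Adjacent tiles can share fragments and are not independent. With both neighbours measured, 72 of 162 methylated tiles had both at 50% or more, 68 had 1 of them there, 22 had neither, and none had both under 10%. Where the neighbour was itself dense, 55.9% of 179 neighbours of methylated tiles were at 50% or more, against 0.370% of 3781 neighbours of tiles under 10%.

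With distance the surroundings of both sets drew closer. The median Non-Cond level of tiles 1 kb away was 55.2% from methylated tiles and 8.33% from tiles under 10%. At 2.5 kb it was 48.6% from methylated tiles and 26.1% from tiles under 10%, and at 10 kb 50.7% and 37.7%.

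Long runs of methylated dense tiles were rare. Of the 349, 255 stood alone, 78 formed 39 pairs, 12 formed 4 runs of 3, and 4 formed the longest run, at chromosome 1, 194362001 to 194364000. Along this run the tile means were 91.5%, 78.3%, 79.8% and 81.2% in Cond, and 90.6%, 81.3%, 77.5% and 80.2% in Non-Cond. The groups overlapped in each of its 4 tiles. In the second tile Cond library 4 was lowest, at 71.4%, and Cond library 1-2 highest, at 85.7%, with Non-Cond libraries from 78.3% to 84.5%.

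Methylated dense tiles made up more of the dense tiles toward the ends of the covered chromosomes. On chromosomes 1 and 10 to 13, measured from the nearer end of the covered part, 13.3% of dense tiles in the outer 1 Mb were methylated, then 15.8% from 1 to 2 Mb, 12.8% from 2 to 3 Mb, 4.47% from 3 to 5 Mb and 6.36% from 5 to 11 Mb. Beyond 11 Mb, which only chromosome 1 reaches, it was 1.39% (32 of 2301). On chromosomes 10 to 13 alone the shares were 12.2%, 14.4%, 13.2%, 4.47% and 6.65% over the same 5 distances. On chromosome 1 alone they were 21.1%, 22.7%, 0 (of 10 tiles), 4.35% (1 of 23) and 2.47% (2 of 81). At each density the share was higher within 3 Mb than beyond it: 26.9% and 8.19% among tiles with 31 to 40 positions, 14.5% and 3.41% with 41 to 60, 10.2% and 1.34% with 61 to 80, and 2.84% and 0.676% with 81 or more. Most dense tiles beyond 3 Mb came from chromosome 1, whose methylated share was low. On chromosomes 10 to 13 alone the contrast was smaller, at 25.9% and 14.7% with 31 to 40 positions, 13.6% and 7.08% with 41 to 60, 24 of 240 tiles and 6 of 312 with 61 to 80, and 2.54% and 1.75% (9 of 354 and 7 of 399) with 81 or more.

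**Figure D3:**
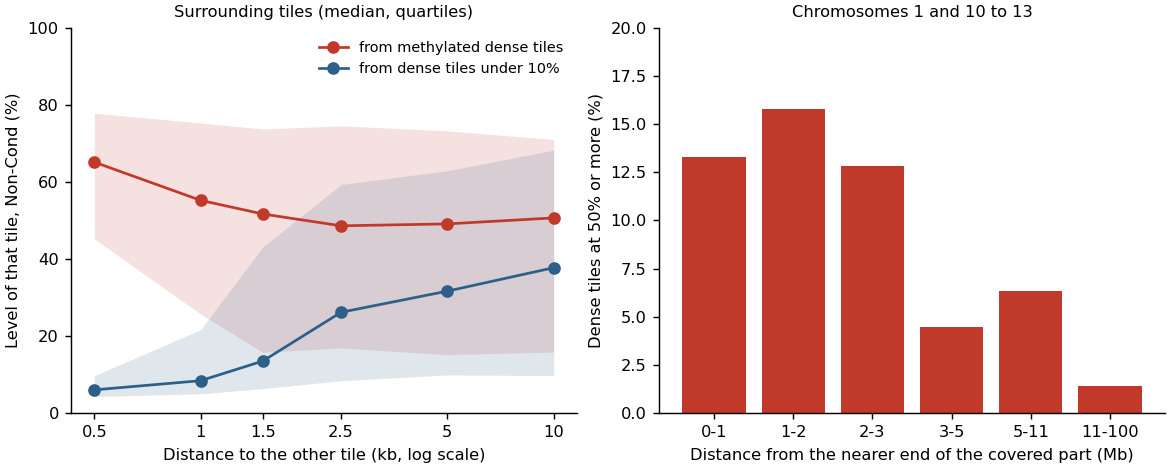
Left, median (line) and quartiles (shading) of the Non-Cond level (%) of tiles at a distance (kb, log scale) from methylated dense tiles (red) and from dense tiles under 10% (blue), which are 65.2% and 5.95% at 0.5 kb and 50.7% and 37.7% at 10 kb. Right, percentage of dense tiles at 50% or more by distance from the nearer end of the covered part (Mb), on chromosomes 1 and 10 to 13: 13.3% in the outer 1 Mb and 1.39% beyond 11 Mb.

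By chromosome, the methylated share of dense tiles was 2.79% on chromosome 1 (72 of 2583), 5.66% on chromosome 10 (44 of 777), 11.1% on chromosome 11 (75 of 677), 13.4% on chromosome 12 (97 of 723), 8.26% on chromosome 13 (54 of 654) and 3.48% on the covered part of chromosome 14 (7 of 201). Members lay in 72 of the 273 megabases with a dense tile. The 10 megabases with the most held 177 of them (50.7%), and 16.3% of all dense tiles. Leading were chromosome 12 from 2 to 3 Mb (28 of 118 dense tiles), chromosome 12 from 11 to 12 Mb (27 of 109) and chromosome 1 from 194 to 195 Mb (22 of 94). These 10 were picked by their counts, so their share is a description.

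Averaged over the 349 tiles, the groups differed by less than the spread between libraries, and the Cond libraries lay on both sides of the Non-Cond ones. It was 72.7%, 65.0% and 68.9% in Cond libraries 1-2, 3 and 4 (mean 68.9% ± 3.85, SD, n = 3), and 67.3%, 70.1%, 69.3% and 69.7% in Non-Cond libraries 1 to 4 (mean 69.1% ± 1.22, SD, n = 4). Cond library 1-2 was above every Non-Cond library, Cond library 3 was below every one, and Cond library 4 was inside their range. The difference of -0.241 percentage points (Cond minus Non-Cond) was smaller than the spread within either group. It was -2.16 points without Cond library 1-2 and 1.69 points without Cond library 3, so its direction depended on single libraries. It also depended on how the tiles were chosen. With all libraries kept, it was 0.029 points in tiles chosen on the mean over all 7, and 0.051 points with the grid shifted by 250 bp. Over 16 alternatives it was positive in 7 and negative in 9.

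In tiles under 10% the order of the libraries was partly different. They averaged 5.75%, 3.03% and 3.54% in Cond libraries (mean 4.11% ± 1.45, SD, n = 3) and 5.27%, 5.33%, 5.62% and 5.60% in Non-Cond libraries (mean 5.46% ± 0.183, SD, n = 4). Cond library 4, which lay inside the Non-Cond range in methylated tiles, was 1.91 points below the Non-Cond mean here. Relative to the Non-Cond mean, Cond libraries 1-2, 3 and 4 stood at 3.59, -4.11 and -0.201 points in methylated tiles, and at 0.296, -2.43 and -1.91 points in tiles under 10%.

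**Figure D4:**
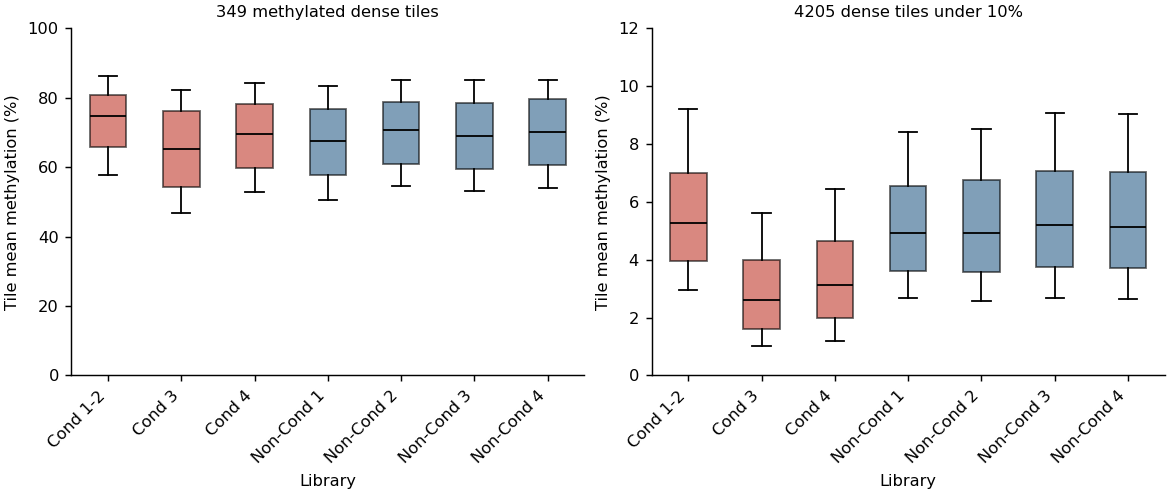
Mean methylation (%) of the 349 methylated dense tiles (left) and of the 4205 dense tiles under 10% (right) in each library, with Cond in red and Non-Cond in blue; boxes span the quartiles with a line at the median, and whiskers reach the 10th and 90th percentiles. Cond library 1-2 has the highest median on the left (74.8%) and Cond library 3 the lowest (65.3%), and on the right Cond libraries 3 and 4 (2.61% and 3.14%) lie below the others.

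Cond library 1-2 was the highest of the 7 libraries in 181 methylated tiles (51.9%) and above the Non-Cond mean in 272. Cond library 3 was the lowest in 153 (43.8%) and below the Non-Cond mean in 279. Cond library 4 was above the Non-Cond mean in 162 and below it in 187. The departures of Cond libraries 1-2 and 3 were wider below 70% than above 80%. In tiles from 50% to 60%, Cond libraries 1-2, 3 and 4 stood at 4.43, -6.50 and -0.769 points from the Non-Cond mean, and from 60% to 70% at 5.71, -4.83 and 0.215 points. From 80% to 90% they stood at 1.13, -1.70 and 0.0957 points. Cond libraries 1-2 and 3 were also the highest and lowest of the 7 over all common positions, at 19.9% and 16.0%. Cond library 4 averaged 17.2% there, and Non-Cond libraries 18.2% to 19.05%. In the 1061 dense tiles between both limits, Cond libraries 1-2, 3 and 4 stood at 3.21, -3.68 and -1.84 points from the Non-Cond mean. Cond library 1-2 was highest in 40.7% of these and Cond library 3 lowest in 45.8%. The pattern was thus not confined to methylated tiles.

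Cond library 1-2 departed from the Non-Cond mean in both directions. Its largest departure upward, named here after its values were seen, was at chromosome 11, 18802501 to 18803000, with 72.9%, 33.1% and 54.5% in Cond and 52.3%, 57.1%, 54.9% and 56.0% in Non-Cond libraries. There the Non-Cond libraries lay close together while Cond libraries 1-2 and 3 lay far to either side. Its largest departure downward, also named after its values were seen, was at chromosome 14, 2600001 to 2600500, with 30.1%, 62.2% and 66.0% in Cond and 72.2%, 66.6%, 58.5% and 74.2% in Non-Cond libraries. The 30.1% is the lowest value of any library in any of the 349 tiles, and the other Cond libraries lay inside the Non-Cond range. The farthest departures of Cond library 3 were -22.7 and 7.04 points, and those of Cond library 4 were -10.0 and 12.0 points.

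**Figure D5:**
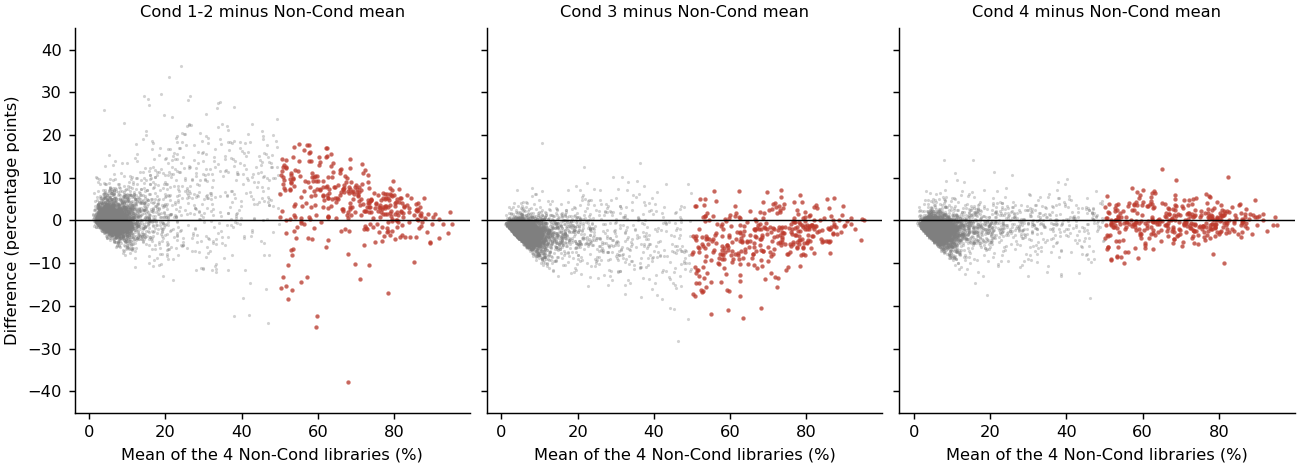
Level of each dense tile in Cond library 1-2 (left), 3 (middle) and 4 (right) minus the mean of the 4 Non-Cond libraries (percentage points), against that mean (%), with the 349 methylated tiles in red and other dense tiles in grey. In the methylated tiles Cond library 1-2 lies mostly above 0 (272 of 349) with a few far below, Cond library 3 mostly below (279 of 349), and Cond library 4 on both sides.

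Tile by tile, no difference between the groups passed. A moderated test (limma, with a mean-variance trend) was fitted to log2((fraction + 0.05)/(1 - fraction + 0.05)) of the tile means, here called the log2 ratio, over 18784 tiles with Benjamini-Hochberg adjustment. It called 0 of the 349 tiles at an adjusted p under 0.05 (lowest limma adjusted p 0.784), as it did 0.0% of all tiles tested. At an unadjusted p under 0.05 it gave 1 of 349 (0.287%), against 6.01% of all tiles; that 1 was lower in Cond, against 4.88% of all tiles, and none was higher, against 1.13%. The count of lower tiles was 0 without Non-Cond library 2 and without Non-Cond library 4, 1 but a different tile without Cond library 1-2 and without Non-Cond library 1, and 2 without Cond library 4, and the count of higher ones was 2 without Cond library 3. The share over all tiles in the fits without a library is not given. In tiles under 10% the unadjusted count with all libraries was 332 of 4135 tested, 1 higher and 331 lower. Since the Non-Cond level chose both sets, these counts are descriptions. The mean difference was positive in 169 methylated tiles and negative in 180, with a median of -0.0876 points, against -1.08 points over all tested tiles. The median log2 ratio difference was -0.0042 in methylated tiles and -0.13 over all tested tiles.

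Fitting the dense tiles alone, where the spread is estimated from dense tiles only, gave an unadjusted p under 0.05 in 8 of the 349 tiles, 1 higher and 7 lower (2.29%). Of the 5545 dense tiles tested 9.74% did so, 0.18% higher and 9.56% lower. None passed adjustment (lowest limma adjusted p 0.495). The groups did not overlap in 3 methylated tiles with higher Cond values (0.860%, against 1.18% of all tiles tested) and in 11 with lower ones (3.15%, against 5.73%), where 6.91% of all tiles had groups apart in either direction.

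The smallest limma p among tiles lower in Cond, and the 1 counted above, was at chromosome 13, 2389001 to 2389500 (35 positions). It had 61.4%, 70.3% and 70.5% in Cond and 82.0%, 78.9%, 72.1% and 80.8% in Non-Cond libraries. Every Cond library lay below every Non-Cond library, though Cond library 4 and Non-Cond library 3 were close. On the log2 ratio scale Cond minus Non-Cond was -0.71 (SE 0.27), with a limma adjusted p of 0.784 after Benjamini-Hochberg adjustment. Cond was lower at 26 of its 35 positions. The differences were -16.1 points over 13 positions on one strand and -8.07 over 22 on the other. This tile and the next ones were picked by their p from these same values. Their separated groups, position counts and strand differences are therefore descriptions, and positions of a tile share the same libraries.

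At chromosome 11, 18780001 to 18780500 (38 positions), the values were 36.4%, 44.5% and 42.8% in Cond and 61.9%, 48.8%, 46.0% and 50.4% in Non-Cond libraries. Non-Cond library 1 stood well above the rest, and the groups did not overlap. The difference was of like size on both strands, -10.9 and -10.2 points, with Cond lower at 30 of 38 positions (log2 ratio difference -0.56, SE 0.27, limma adjusted p = 0.784). At chromosome 13, 1034501 to 1035000, the values were 60.003%, 58.6% and 62.7% in Cond and 66.7%, 71.3%, 66.4% and 67.4% in Non-Cond libraries. The groups were apart there with little spread in either (log2 ratio difference -0.42, SE 0.21, limma adjusted p = 0.784).

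The other tiles lower in Cond by this rule also had groups that did not overlap. At chromosome 12, 16112001 to 16112500, the values were 58.1%, 49.9% and 55.9% in Cond and 60.9%, 63.5%, 65.0% and 60.96% in Non-Cond libraries. Cond minus Non-Cond there was -8.00 points on one strand and -7.93 on the other. At chromosome 1, 194470001 to 194470500, the values were 75.4%, 80.5% and 82.0% in Cond and 86.6%, 82.6%, 85.8% and 85.6% in Non-Cond libraries. Cond minus Non-Cond in that tile was -8.80 points over 27 positions on one strand and 1.32 over 11 on the other. With such unequal counts the strands were not compared at the same CpGs. Cond library 4 and Non-Cond library 2 almost met in this tile.

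Among tiles higher in Cond the smallest p was at chromosome 1, 51762001 to 51762500 (39 positions), with 70.2%, 69.1% and 66.7% in Cond and 59.8%, 61.6%, 64.1% and 63.4% in Non-Cond libraries. The groups did not overlap, and Cond was higher at 30 of 39 positions and on both strands, by 8.04 and 4.95 points (log2 ratio difference 0.37, SE 0.20, limma adjusted p = 0.784). That tile was picked by its p as well, so these values are descriptions. The tile before it averaged 5.50% in Cond and 5.22% in Non-Cond.

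The edge tile at chromosome 11, 19531001 to 19531500, also came out higher in Cond, with 63.6%, 56.6% and 56.6% in Cond and 51.3%, 54.2%, 52.3% and 54.3% in Non-Cond libraries. The groups did not overlap (log2 ratio difference 0.32, SE 0.21, limma adjusted p = 0.794). With positions required in only 5 of 7 libraries the difference was -0.03, so its direction depends on which positions are counted. Under that setting libraries were averaged over partly different positions, so like positions were not compared. In the remaining 3 tiles higher in Cond, at chromosome 11, 1150501 to 1151000, chromosome 11, 4637501 to 4638000, and chromosome 10, 20050501 to 20051000, the groups overlapped, with differences of 6.71, 5.89 and 4.36 points (limma adjusted p 0.784, 0.794 and 0.797). The log2 ratio difference of the tile at chromosome 11, 1150501 to 1151000, was 0.43, but 0.74 with both strands of each CpG averaged and 0.03 with positions required in only 5 of 7 libraries.

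Spread between Non-Cond libraries was itself uneven. The SD over the 4 Non-Cond libraries had a median of 3.17 points in methylated tiles and 1.28 in tiles under 10%, and within methylated tiles the median was 4.65 points from 50% to 60% and 2.19 from 80% to 90%. It was widest at chromosome 11, 1839001 to 1839500, with 41.1%, 56.5% and 48.0% in Cond and 47.2%, 58.1%, 38.9% and 77.7% in Non-Cond libraries (SD 16.8, n = 4). Non-Cond libraries 3 and 4 there bracketed all Cond libraries.

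At chromosome 11, 405501 to 406000, the values were 65.0%, 32.9% and 44.0% in Cond and 38.0%, 39.8%, 60.1% and 64.7% in Non-Cond libraries, so both groups spanned much the same range. Next came chromosome 12, 3129501 to 3130000 (SD 8.12 in Cond, n = 3, and 13.1 in Non-Cond, n = 4), chromosome 13, 13245001 to 13245500 (2.28 and 12.2) and chromosome 1, 61758001 to 61758500 (7.13 and 11.8). The steadiest, after the highest tile, were chromosome 10, 20112501 to 20113000 (SD 3.85 in Cond and 0.448 in Non-Cond), chromosome 1, 15899001 to 15899500 (2.41 and 0.529), chromosome 1, 50668501 to 50669000 (0.620 and 0.624) and chromosome 12, 2418501 to 2419000 (4.93 and 0.651). The rule took the extremes of the Non-Cond SD, so these SDs are not comparable between the groups.

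In the authors' deposited table, 240 segments lay in 189 of the methylated tiles, and none had a q-value under 0.05. Of these segments, 117 were lower and 123 higher in Cond (48.8% lower). In tiles under 10% the authors' deposited table had 6918 segments, 86.5% of them lower in Cond, and 52 with a q-value under 0.05. In dense tiles from 10% to under 50% it had 1252 segments, 57.5% of them lower in Cond, and 8 with a q-value under 0.05. The share over all deposited segments was not counted. Such q-values were rare in those sets too, so their absence among 240 segments is not read as a trait of methylated tiles. The smallest q-value in a methylated tile in the authors' deposited table was 0.727, at chromosome 11, 17924336 to 17924474, with deposited means of 35.9% in Cond and 54.9% in Non-Cond over 20 CpG positions. The whole tile around it, at chromosome 11, 17924001 to 17924500, had 34.5%, 43.0% and 49.2% in Cond and 49.4%, 48.4%, 53.1% and 50.3% in Non-Cond libraries. Cond library 4 lay inside the Non-Cond range in it, so the groups overlapped.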

How the data were processed

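RRBS libraries of sorted chicken microglia (3 Cond, 4 Non-Cond) were analysed from the deposited tables. The submitters' processing notes name Trimmomatic, Bismark 0.22.3, Bowtie, HOMER and galGal5; their settings are not given in the sources used here. The site table deposited by the authors gives percent methylation per cytosine, unscaled between libraries. It holds 1048575 positions, with its header as many lines as a spreadsheet holds, and ends on chromosome 14 at 4886681, so it appears incomplete. Per the file headers, the authors' segment table gives group means in percent, a difference score in percentage points (Non-Cond minus Cond), p-values and q-values, and the count of CpG positions.

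Common positions were averaged per 500-bp tile and library. Positions 1 bp apart were read as both strands of a CpG, and runs of 4 or more positions as touching CpGs. Runs of odd length (17.7% of common positions) were left out of strand pairs, and in CpG counts each such run counted as 1. The strand differences of single tiles named for their p used all common positions, paired or not. Their strands therefore need not cover the same CpGs. Tiles with at least 3 common positions and a mean from 2% to 98% entered the fit, made in R 4.3.3 with limma 3.58.1. The step was tested on simulated data with noise drawn independently for each tile and library. Shifts of a whole library, like those of Cond libraries 1-2 and 3, were not simulated. The offset of 0.05 shrinks differences near 0 and 100%. Other steps used Python 3.11.15, numpy 2.4.6 and pandas 2.3.3. The labels name pools and numbers but not separate hatches, so p-values measure only the spread between these libraries, which may be technical. With unknown depth, no interval or detection limit was given.

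Named tiles were the 5 with the most positions, the 5 highest and 5 lowest in level, the 5 dense tiles just under 50%, the 5 with the smallest limma p in each direction, the 5 with the largest and 5 with the smallest Non-Cond SD, and the longest run. Tiles and lists were chosen with earlier results of these data known. Alternatives covered the density and level limits, the grid, the choice of libraries, the offset and scale, filters, centring, each library left out and a replicate block. Counts by limma and differences under other density and level limits, with Cond-chosen members, positions in 5 of 7 libraries or strands averaged were added after the data were seen.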

Additional observations from a re-analysis of the deposited data

Results flagged for a closer look

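The tile at chromosome 12, 3232501 to 3233000, had a Non-Cond library apart from the others, though their SD was only 1.39 points (n = 4). The Cond libraries had 86.1%, 80.02% and 82.8%. Non-Cond library 2 had 80.6%, against 83.3%, 83.6% and 83.2% in Non-Cond libraries 1, 3 and 4, and its gap took 0.856 of their whole range. It was 1 of 43 sets of Non-Cond values examined, where chance would give about 2.15 in sets taken without regard to their values. Many of these sets were named by their Non-Cond level, spread or p, so that count is only nominal and the flag is a description.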

How the results depend on the processing

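Depth is unknown, so no coverage minimum could be tried, and tiles of other chromosomes were not analysed. No alternative gave a methylated tile an adjusted limma p under 0.05. The methylated tiles numbered 729 (9.91% of dense tiles) with a minimum of 21 positions, 172 (3.94%) with 41, and 557 with positions in 5 of 7 libraries. Their mean was 63.9% in Cond and 64.1% in Non-Cond with a limit of 40%, and 74.4% and 74.3% with 60%. At an unadjusted p under 0.05, the count higher in Cond was 1 of 729 with 21 positions and 1 of 344 with tiles chosen on Cond libraries. It was 1 of 340 with strands averaged and 1 of 349 with dense tiles alone. The count lower in Cond was 13 of 729 with 21 positions, 0 of 172 with 41, and 3 of 441 with a limit of 40%. It was 6 of 557 with 5 of 7 libraries, 2 of 340 with strands averaged and 7 of 349 with dense tiles alone. The cause of these shifts was not tested; the lower limits and 5 of 7 libraries admit more tiles by construction. Leaving out a library gave 0 to 2 higher, 0 to 2 lower, and a mean difference from -2.16 to 1.69 points. In the reported fit 1.13% of all tiles were higher and 4.88% lower, and with dense tiles alone 0.18% and 9.56%. The share over all tiles under the other settings is not given, so these counts are descriptions. The 1 lower tile, chromosome 13, 2389001 to 2389500, no longer had an unadjusted p under 0.05 without Cond library 1-2, without Non-Cond library 1, 2 or 4, or with median centring, where another tile sometimes took its place. The mean difference was positive in 7 of 16 alternatives. The 10 tiles named for their p kept their direction, except chromosome 11, 19531001 to 19531500, which turned to -0.027 with 5 of 7 libraries, where chromosome 11, 1150501 to 1151000, stood at 0.03; their limma adjusted p ran from 0.392 to 0.995 over all alternatives. Of 192 recomputed levels of the tiles named by the other rules, 186 moved by less than the SD between Non-Cond libraries. Leaving out 1 Non-Cond library cannot move the mean of the 4 by that much. Only levels with positions in 5 of 7 libraries or with strands averaged could do so, and the 6 that did were among these. Only numbers 3 and 4 are shared by the groups, and same-numbered libraries did not deviate together (r 0.0090 and 0.0010 over 18784 tiles). In the fit with a replicate block, only libraries 3 and 4 of each group bear on the group difference. That fit therefore does not check all 7 libraries, and it had little to estimate the spread from. It gave 0 tiles called, and 0 higher and 1 lower unadjusted, but that 1 was a different tile. Under the block chromosome 13, 2389001 to 2389500, stood at -0.40, against -0.71 without it, and 4 of the 10 tiles moved by over 1.5 times.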
